A study of Mus musculus with 16 samples.

Results

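Chylomicron apolipoproteins and the factors that assemble them were followed through 9 genes, *Apob*, *Apoa1*, *Apoa4*, *Apoc2*, *Apoc3*, *Mttp*, *Sar1b*, *Apobec1* and *Creb3l3*. They were chosen by name, with earlier results of these data known. All 9 were found among the 23299 genes of the deposited table and among the 19042 genes tested. The samples were terminal ileum of C57BL/6 mice, either wild-type (Tas1r3+/+, WT) or knockout (Tas1r3-/-, KO), which carry the germline allele Tas1r3tm1Csz, backcrossed to C57BL/6, and so lack the sweet and umami receptor subunit TAS1R3 in every cell type. Mice of both sexes, littermates kept specific pathogen-free, received for 10 weeks either a normal diet with plain water (ND) or a Western diet (WD), made of pellets high in fat (60%) and drinking water sweetened with sucrose (30%). The age at sampling is not in the labels, and feeding began in young mice of matched age. The labels give 4 mice per group, 2 males and 2 females, whereas the values support 4 libraries of WT-ND, 2 of KO-ND (both male), 4 of WT-WD and 3 of KO-WD (2 males and 1 female).

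After a meal, enterocytes pack absorbed fat into chylomicrons. Microsomal triglyceride transfer protein (*Mttp*) loads lipid onto apolipoprotein B (*Apob*) in the endoplasmic reticulum, and the GTPase encoded by *Sar1b* drives the coat that carries the particle towards the Golgi. In the gut, the cytidine deaminase encoded by *Apobec1* edits the *Apob* messenger so that a glutamine codon becomes a stop codon, which gives the short form of the protein. Apolipoproteins A-I, A-IV, C-II and C-III ride on the particle. A-IV follows fat absorption, C-II activates lipoprotein lipase and C-III restrains it. CREB3L3 is a membrane-bound transcription factor of liver and gut that switches on several apolipoprotein genes.

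The *Apob* editing site is shown because it is where 2 members meet. It lies at chr12:8008050-8008075 on the plus strand (GRCm38), in exon 26 of the 29 exons of the full-length *Apob* transcript, and the edited base is position 6666 of that transcript, in codon 2179. Capitals mark the edited codon and the mooring sequence that guides the enzyme.
Apob editing site: gataCAAttTGATCAGTATAttaaag
The RPKM values do not show whether this base was edited.

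The DNA just upstream of *Apoa4* and *Apob* is shown because these were the most variable member and the scaffold of the particle. Both stretches come from RefSeq (GRCm38.p6), lie on the plus strand and end at the base before the transcript starts in GENCODE M21.
Apoa4 upstream, chr9:46240594-46240695: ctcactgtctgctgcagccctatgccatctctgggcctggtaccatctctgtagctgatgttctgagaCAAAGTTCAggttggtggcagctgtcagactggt
Apob upstream, chr12:7977427-7977647: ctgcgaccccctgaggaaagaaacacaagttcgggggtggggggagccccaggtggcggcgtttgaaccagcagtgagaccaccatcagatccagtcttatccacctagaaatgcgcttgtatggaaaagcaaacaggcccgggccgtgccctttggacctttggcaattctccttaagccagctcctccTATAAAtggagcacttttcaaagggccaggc
The capitals mark CAAAGTTCA, a form of the site bound by HNF4-type nuclear receptors, beginning 34 bases before the *Apoa4* transcript, and TATAAA beginning 31 bases before the *Apob* transcript. The 6 short motifs listed here were searched for on both strands of 32851 promoters of 250 bases. CAAAGTTCA was in 0.335% of them, among the members at *Apoa4* and *Apobec1*, and TATAAA was in 12.4%, at *Apob* and *Apobec1*. CAAAGTCCA (0.384%) and CAAAGGTCA (0.426%) were at no member, TGACGT (6.47%) was at *Mttp* and AGATAA (9.99%) was at *Creb3l3*. The promoters with the *Mttp*, *Creb3l3* and *Apobec1* matches start 12041, 6283 and 2317 bases from the start of the main transcript in these data, and the *Creb3l3* promoter 2 bases from that start held none of the motifs. These matches describe letters only. *Apoc3* had no entry in the promoter table.

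*Apoa1*, *Apoc3* and *Apoa4* are neighbours on chromosome 9, at 46228580-46230466, 46232933-46235636 and 46240696-46243459. The other members are on chromosomes 12 (*Apob*, 7977648-8016835), 7 (*Apoc2*, 19671579-19677941), 3 (*Mttp*, 138089854-138144968), 11 (*Sar1b*, 51763687-51791925), 6 (*Apobec1*, 122577792-122602444) and 10 (*Creb3l3*, 81084324-81098874). *Apoc2* overlaps *Gm44805* on the same strand, so its level is uncertain, and *Gm44805* ran from 1.19 to 48.4 scaled RPKM over the libraries. *Apoa4* and *Mttp* each overlap genes on the opposite strand, and the sources used here do not say whether counting used strand.

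The libraries held 7003118 to 12383167 reads as inferred from the steps between low values, and 1 read of a transcript of 1 kb was worth 0.0692 to 0.139 RPKM. In KO-ND mice, the female 1 and female 2 columns equaled weighted means of the male columns (0.75 and 0.25, and 0.625 and 0.375) in all but 17 and 18 of 59258 transcripts, so both were left out. The KO-WD female columns, which are related, were averaged into 1 library, which left 13. *Tas1r3* was 1.56 to 2.09 scaled RPKM in WT-ND, 4.33 to 6.65 in WT-WD, and at most 0.000755 in KO-ND and 0.00532 in KO-WD, in the direction of the labels. Its values, unlike those of all 22 member transcripts, include numbers with more than 6 significant digits, the most that the quantification wrote for nearly all values. *Fabp6*, a marker of the distal ileum, was high in all libraries (741 to 8821 scaled RPKM), and the summed level of 8 liver markers was 12.5 to 126 scaled RPKM. The tissue is whole, so fewer cells of a type and less RNA per cell cannot be told apart.

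Levels below are scaled RPKM, that is, the deposited reads per transcript length and library total, divided by a scaling factor for each library. Differences are in log2(scaled RPKM + 0.5), estimated with limma over all 19042 genes with Benjamini-Hochberg adjustment, and called genes are those that differ at least 2-fold with an adjusted p below 0.01. No member was called, or passed an adjusted p of 0.05, in any comparison, so each difference below is described by its size and its interval. In the wild-type ND-fed ileum, *Apoa1* was by far the most abundant member per length, and *Apobec1* the least.

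**Figure D1:**
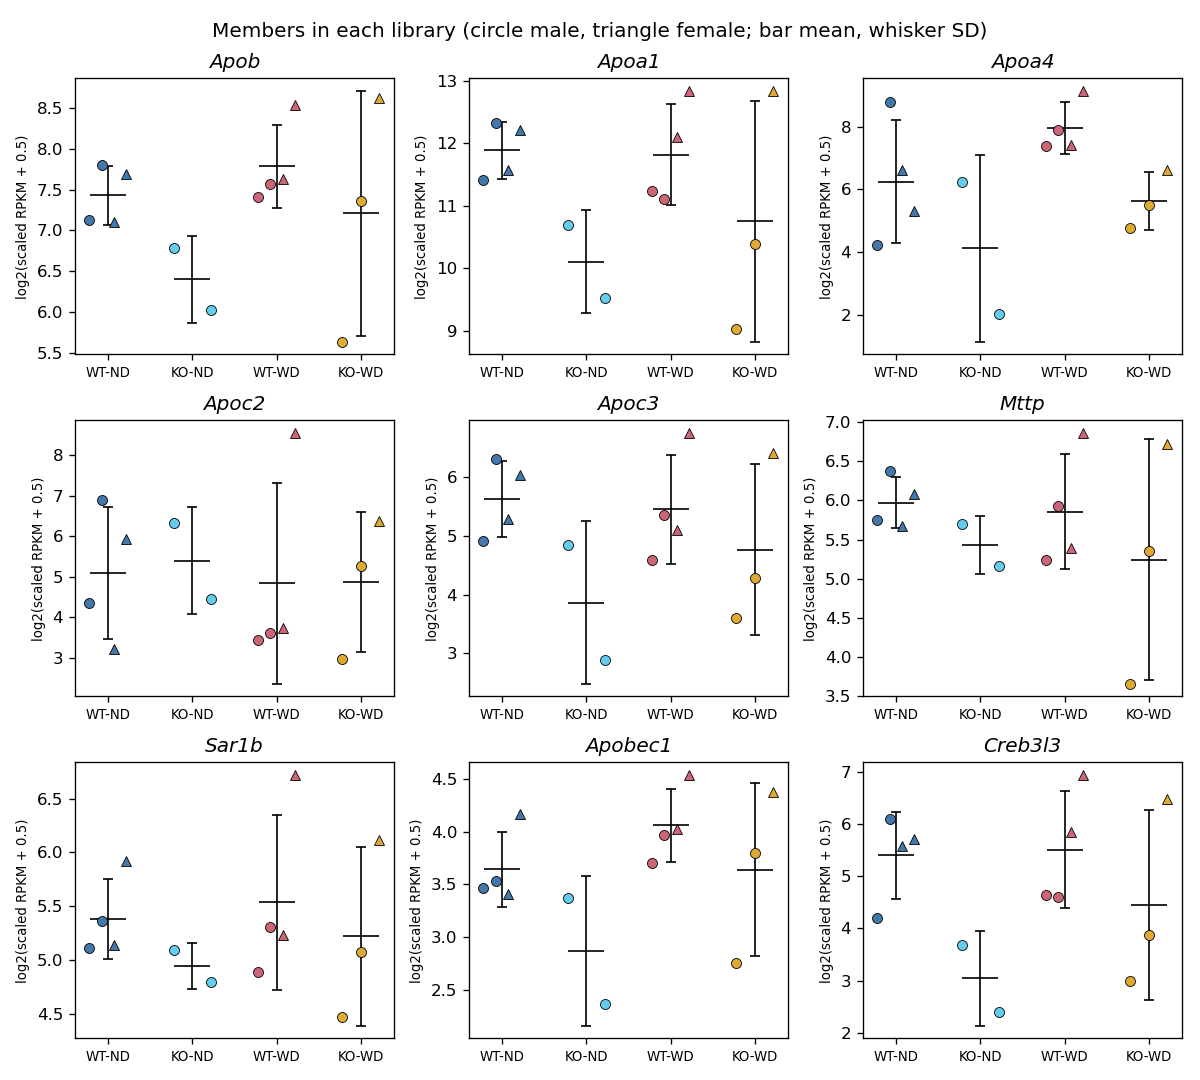
Log2(scaled RPKM + 0.5) of each member in each library, by group, with males as circles, females as triangles, the group mean as a bar and the SD as a whisker. The KO-ND group has 2 males, and within KO-WD the female is the highest of the 3 libraries for every member.

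*Apob*, the protein scaffold of the particle, was at 140 and 222 scaled RPKM in the WT-ND males and 137 and 205 in the females. It was at 110 and 64.7 in the KO-ND males. In WT-WD it was at 169 and 189 in the males and 198 and 370 in the females, and in KO-WD at 49.4 and 164 in the males and 393 in the female. Both KO-ND values lay below the lowest WT-ND value, whereas the KO-WD libraries held both the lowest and the highest level of the series.

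*Apoa1* encodes the main protein of high-density lipoprotein, which the gut also puts on chylomicrons. Its level was 2733 and 5142 in the WT-ND males, 3048 and 4755 in the females, and 1646 and 733 in the KO-ND males. WT-WD males were at 2395 and 2190 and females at 4381 and 7273, while KO-WD males were at 520.5 and 1343 and the female at 7299. The 4 KO males were the 4 lowest libraries for this gene. *Apoa1* exceeded *Apob*, the next member in 3 of the 4 groups, in every library of each group.

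*Apoa4* encodes a protein that rises with fat absorption, and it varied most, by 160.2-fold from its lowest to its highest library. WT-ND males were at 18.1 and 443 and females at 98.5 and 39.5, KO-ND males at 74.3 and 3.53, and WT-WD males at 165 and 240.2 with females at 171 and 566. KO-WD males were at 27.0 and 44.4 and the female at 98.3. All 4 WT-WD libraries lay above all 3 KO-WD libraries, and WT-ND overlapped both. 

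*Apoc2*, whose product activates lipoprotein lipase, was at 19.8 and 118 in the WT-ND males and 8.86 and 60.5 in the females, and at 80.6 and 21.6 in the KO-ND males. In WT-WD it was at 10.4 and 11.8 in the males, 12.8 in female 1 and 376 in female 2, and in KO-WD at 7.41 and 38.0 in the males and 83.4 in the female. The WT-WD female 2 library was far above the rest of its group, and the groups overlapped. *Apoc3*, whose product slows lipid clearance, was at 29.6 and 78.6 in the WT-ND males and 38.3 and 65.0 in the females, and at 28.2 and 6.90 in the KO-ND males. It was at 23.7 and 40.3 in the WT-WD males and 33.8 and 107 in the females, and at 11.7, 19.0 and 84.0 in KO-WD. Both KO-ND values of this sum of transcripts lay below WT-ND, which did not hold for its main coding transcript alone.

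Of the assembly factors, *Mttp* was at 53.2 and 82.5 in the WT-ND males and 50.7 and 67.4 in the females, and at 51.4 and 35.4 in the KO-ND males. It was at 37.3, 60.4, 41.7 and 116 in WT-WD and at 12.1, 40.3 and 105 in KO-WD, in the order males then females. *Sar1b* was steadier, at 34.0, 40.6, 34.8 and 60.0 in WT-ND and 33.7 and 27.3 in KO-ND. It was at 29.1, 39.0, 37.1 and 105 in WT-WD and at 21.6, 33.3 and 68.6 in KO-WD. For *Mttp* the groups overlapped in each comparison. For *Sar1b* they overlapped except on the ND, where both KO values lay just below the lowest WT value.

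*Apobec1*, the editing enzyme, was at 10.6, 11.1, 10.1 and 17.5 in WT-ND and at 9.82 and 4.66 in KO-ND. It was at 12.5, 15.2, 15.8 and 22.7 in WT-WD and at 6.24, 13.4 and 20.2 in KO-WD. *Creb3l3*, the transcription factor, was at 17.9, 68.1, 47.3 and 51.9 in WT-ND and at 12.4 and 4.79 in KO-ND. It was at 24.3, 23.7, 57.0 and 122 in WT-WD and at 7.48, 14.1 and 88.9 in KO-WD. For both genes the KO-ND males were below all WT-ND libraries, and the KO-WD female ranked after the WT-WD female 2 library alone.

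Per length, in every group *Apoa1* stood first and *Apobec1* last by mean log2 level. *Apoa1* did not overlap the member after it in any group. Below *Apob*, neighbours in the order overlapped in each group, except that *Apob* did not overlap *Mttp* in KO-ND and WT-WD.

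The first question was whether the WD moved these genes in WT mice. The deposited values of the ND columns sum to nearly 1 total (817011 to 819992) and those of the WD columns to lower, unequal ones (542371 to 685274), so the scale of the values differs with diet, and each WD minus ND value rests on the scaling between libraries. The *Apoa4* mean was 286 ± 190 scaled RPKM (SD, n = 4) on the WD and 149.8 ± 198 (SD, n = 4) on the ND, a log2 difference of 1.72 (SE 0.99, 95% CI -0.42 to 3.87). Its adjusted p was 0.421 with limma, and its two-sided exact permutation p was 0.2. The other 8 members differed by -0.26 to 0.42. Of the 9, 5 were higher on the WD, beside 51.8% of all genes. None was called, beside 0.00525% of all genes, and none passed an adjusted p of 0.05, beside 0.116%. None had an unadjusted p under 0.05, beside 6.9% of all genes in the higher and 8.63% in the lower direction, and none was free of overlap, beside 4.2% and 6.3%. Their median difference was 0.10, beside 0.02 over all genes, and it turned to -0.47 with males only and to -0.35 without scaling.

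In KO mice, the WD difference was 1.51 for *Apoa4* (95% CI -1.26 to 4.28) and 1.40 for *Creb3l3* (95% CI -0.65 to 3.46). Of the 9 members, 7 were higher on the WD, beside 50.4% of all genes, and *Apoc2* and *Mttp* were lower, and the median difference was 0.77, beside 0.00 over all genes. None of the 9 members was called, as 0% of all genes were, and none passed an adjusted p of 0.05, beside 0.00525%. None had an unadjusted p under 0.05, beside 2.75% of all genes in either direction, and none was free of overlap, beside 10.8% (higher) and 10.1% (lower). This comparison sets 2 males against 2 males and a female. Without the KO-WD female, *Apoa1* turned from 0.65 to -0.39 and *Sar1b* from 0.27 to -0.17, and without KO-ND male 2 *Apoa4* turned to -0.59.

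On the ND, 8 of the 9 members were lower in KO than in WT mice, all except *Apoc2*, beside 48.7% of all genes, and the median log2 difference was -1.03, beside 0.01 over all genes. *Creb3l3* differed by -2.35 (SE 0.90, 95% CI -4.30 to -0.40) and *Apoc3* by -1.77 (SE 0.79, 95% CI -3.47 to -0.07). Their unadjusted p were 0.022 and 0.0429, and the adjusted p was 0.895 for each with limma. Most of the *Apoc3* RPKM came from a transcript without a coding sequence. The main coding transcript overlapped between these groups, and the values of both are given below. None of the 9 was called, as 0% of all genes were, and none passed an adjusted p of 0.05, beside 0.00525%. In the lower direction 2 of 9 had an unadjusted p under 0.05, as did 2.62% of all genes. *Apob*, *Apoa1*, *Apoc3*, *Sar1b*, *Apobec1* and *Creb3l3*, 6 of 9, did not overlap between the groups and were lower in KO, as were 13.3% of all genes. With 2 against 4 libraries the two-sided exact permutation test cannot go below 0.0667, its value for *Apob*, *Apoa1*, *Apoc3*, *Apobec1* and *Creb3l3*.

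The KO-ND group is male only. Among males alone the 9 differences on the ND ran from -2.36 (*Apoa4*) to -0.18 (*Apoc2*), with a median of -1.03. With sex as a covariate the median was -0.66.

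On the WD, 8 of the 9 members were again lower in KO, all except *Apoc2* at 0.04, beside 52.3% of all genes, and the median was -0.61, beside -0.01 over all genes. *Apoa4* differed by -2.33 (SE 1.07, 95% CI -4.65 to -0.01), with an unadjusted p of 0.0488, an adjusted p of 1 with limma and an exact permutation p of 0.0286, the lowest that 4 against 3 libraries allow. *Apoa4* was the only member without overlap, beside 1.29% of all genes that were lower without overlap, and the only one with an unadjusted p under 0.05, beside 1.01%. None of the 9 was called, beside 0.0105% of all genes, and none passed an adjusted p of 0.05, beside 0.0263%. This median rested on the KO-WD male 1 library: without it, *Apob* was at 0.23, *Mttp* at 0.21, *Sar1b* at 0.08 and *Apobec1* at 0.05, the median was 0.05, and *Apoa4* was at -1.88.

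The genotype comparisons share their libraries with the diet comparisons, so the 2 kinds are not independent. The KO minus WT difference on the WD, less that on the ND, was tested as an interaction. It ran from -0.27 (*Apoc2*) to 1.30 (*Creb3l3*), with a median of 0.36 beside -0.00 over all genes, and all 9 intervals included 0 (adjusted p of 1 with limma), where 0.719% of all genes were higher and 0.709% lower at an unadjusted p under 0.05. None of the 9 was called or passed an adjusted p of 0.05, as 0% of all genes did.

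**Figure D2:**
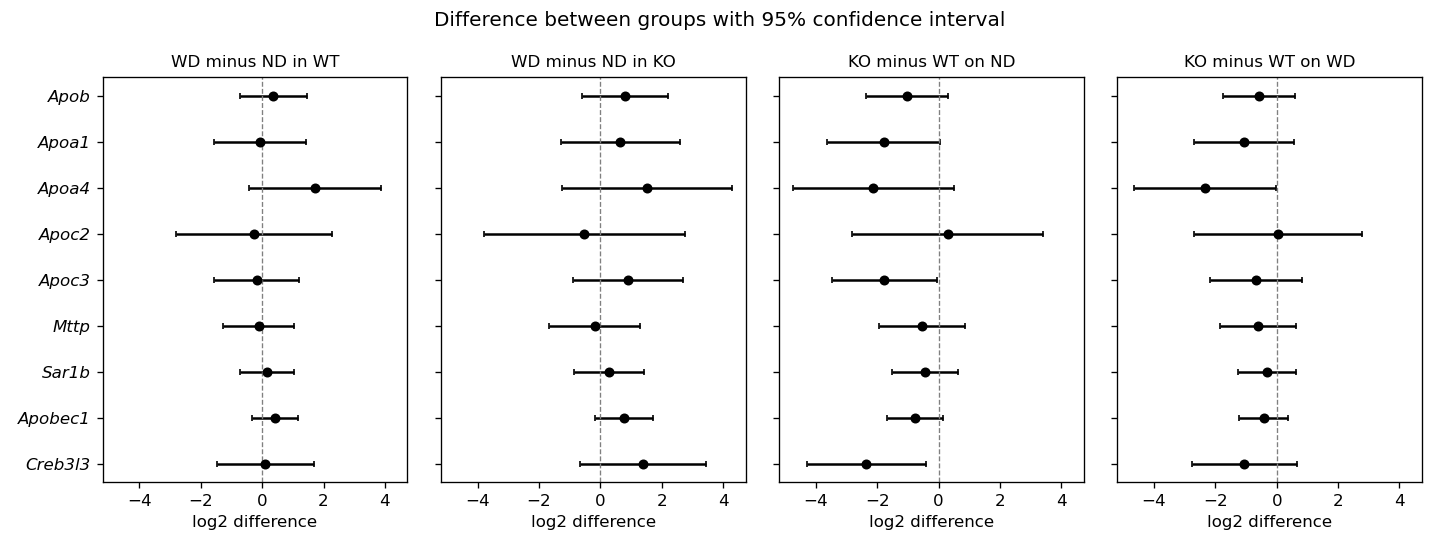
Log2 difference of each member between 2 groups, with its 95% confidence interval from limma, in 4 comparisons. Only the intervals of *Apoc3* and *Creb3l3* on the ND and of *Apoa4* on the WD, all KO minus WT, leave out 0, and none passed the adjustment over all genes.

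In males of both diets together, an alternative chosen after the data were seen, KO libraries were lower for 8 of 9 members, beside 47% of all genes, with a median of -0.997, beside 0.03 over 18460 genes. *Apoa1* was at 520.5 to 1646 in the 4 KO males and 2190 to 5142 in the 4 WT males, a difference of -1.59 (adjusted p = 0.134 with limma). *Creb3l3* was at 4.79 to 14.1 and 17.9 to 68.1, a difference of -1.62 (adjusted p = 0.16 with limma). These 2 of 9 members did not overlap and were lower in KO, beside 3.39% of all genes, and 4 of 9 had an unadjusted p under 0.05 in that direction, beside 9.88%. None was called, beside 0% of all genes, or passed an adjusted p of 0.05, beside 0%.

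All 9 members were higher in females than in males when the groups were held constant, beside 48.7% of all genes, with a median log2 difference of 0.78, beside -0.01 over all genes. *Creb3l3* differed by 1.61 (95% CI 0.60 to 2.63, adjusted p = 0.103 with limma), *Apoa1* by 1.28 and *Sar1b* by 0.78. Those 3 of 9 had an unadjusted p under 0.05 in that direction, beside 9.98% of all genes, and none was called, beside 0.042%, or passed an adjusted p of 0.05, beside 0.457%. The 5 female libraries of *Creb3l3* ran from 47.3 to 122, and the 8 male libraries from 4.79 to 68.1, so the ranges overlapped. The sex difference was not seen in each group: the mean z-score of the members was 0.20 in males and 0.22 in females of WT-ND, -0.07 and 0.89 in WT-WD, and -0.95 and 1.10 in KO-WD, which has 1 female. Whether it differed between groups was not tested. Cell type markers moved with it, as all 12 mature enterocyte markers (median 0.73) and all 7 distal ileum markers (median 1.06) were higher in females, and all 8 crypt markers (median -0.61) and all 7 Paneth cell markers (median -0.68) were lower. Lists outside the epithelium moved too. All 7 adipocyte (median 2.05), 6 of 7 T cell (1.08), all 4 blood (0.88) and all 5 B cell markers (0.70) were higher in females. In the other direction, 5 of 6 plasma cell markers were lower (median -0.61), as were 7 of 8 smooth muscle markers (-0.23). Relative to the mature enterocyte markers, the median of the members was 0.03. That step subtracts 1 value per library and shifts all genes alike, so the gap between the members and all genes stays as it was. The part of these cells in the sex difference was not tested.

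The members varied together from library to library. Among the 36 pairs, Pearson's r over the 13 libraries ran from 0.37 to 0.96 (median 0.82), and from 0.42 to 0.97 (median 0.85) for deviations from the group means. These r are descriptions over libraries that share their scaling. *Apob* tracked the others best (median r 0.88) and *Apoc2* least (0.58). The WT-WD female 2 library was highest for 7 of the 9 members and the KO-WD female for the other 2, and the KO-WD male 1 and KO-ND male 2 libraries were lowest for 5 and 4.

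**Figure D3:**
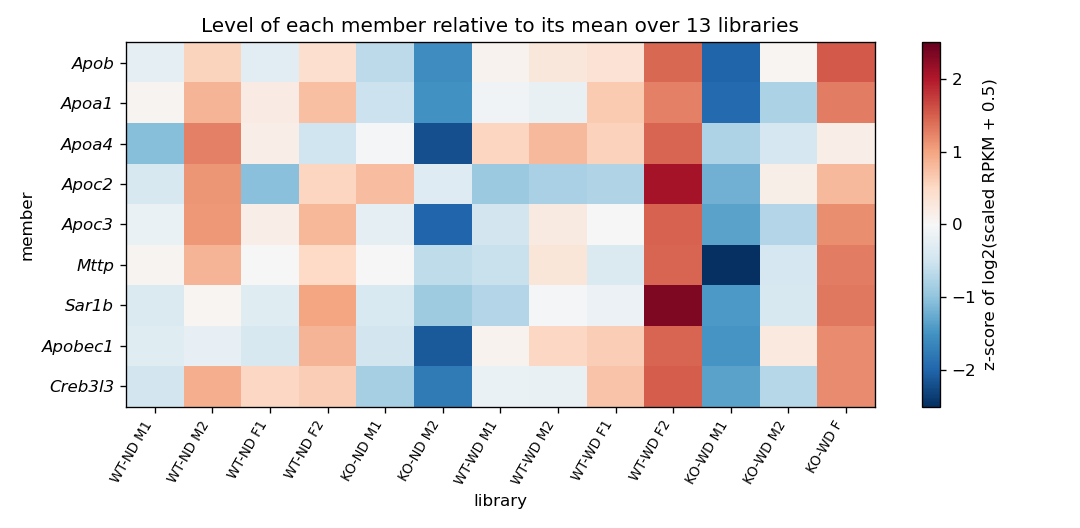
Heat map of each member's level in each of the 13 libraries, as a z-score of log2(scaled RPKM + 0.5) over the libraries. WT-WD F2 and KO-WD F are above the mean for all 9 members, and KO-WD M1 and KO-ND M2 are below it for all 9.

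This shared level moved with the markers of mature enterocytes, and also with those of several other epithelial lists. The mean log2 level of 12 mature enterocyte markers ran from 5.41 in the KO-WD male 1 library to 8.38 in the KO-WD female, with 6.31 to 6.82 in KO-ND and 7.09 to 7.97 in WT-ND. Its correlation with the mean z-score of the members was r = 0.92 and rho = 0.87 over 13 libraries, with 0.88 without the 2 libraries farthest from the median and 0.92 for deviations from the group means. The mean of 8 smooth muscle markers ran the other way, from 6.50 in the WT-WD female 2 library to 8.89 in KO-WD male 1 (r = -0.66, rho = -0.68, and -0.62 without the 2 farthest). The relation was not particular to mature enterocytes. Over the 13 libraries, r was 0.87 for villus tip enterocyte, 0.83 for distal ileum and 0.79 for enteroendocrine cell markers. It was 0.70 for proximal small intestine and 0.61 for goblet cell markers, and -0.61 for crypt and -0.34 for Paneth cell markers. All 12 mature enterocyte markers were lower in KO on the ND (median -0.86) and 10 of 12 on the WD (median -0.49). All 7 distal ileum markers were lower in KO on both diets (medians -1.06 and -0.52). All 8 smooth muscle markers were higher in KO on both diets (medians 0.60 and 0.31), as were all 7 Paneth cell markers (medians 1.21 and 1.38), of which 3 carry values with more than 6 digits. No mature enterocyte, distal ileum, smooth muscle or Paneth cell marker passed an adjusted p of 0.05 in either comparison.

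Over single members, *Mttp* had the highest r with the mature enterocyte markers (0.95, rho 0.95, 0.89 without the 2 farthest, permutation p = 1e-05, the smallest that 100000 permutations give) and *Apoa4* the lowest (0.50, rho 0.43, 0.54 without the 2 farthest, permutation p = 0.084). Among 27 relations computed with Benjamini-Hochberg adjustment, the p of 8 of the 9 members passed 0.05, the exception being *Apoa4* (0.126). The adjusted p of *Mttp* was 0.000135. The permutations moved libraries freely across groups and sexes, so these p do not account for shifts that groups, sexes or scaling share. Taken relative to the mature enterocyte markers, an alternative chosen after the data were seen, the median KO difference on the ND went from -1.03 to -0.04. This subtracts 1 value per library and so shifts all genes alike, which leaves the order of the members as it was and says nothing of single members. On the WD the same step raised all members by a smaller amount, to -1.91 for *Apoa4*. The part of the enterocyte share in these differences was not tested.

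**Figure D4:**
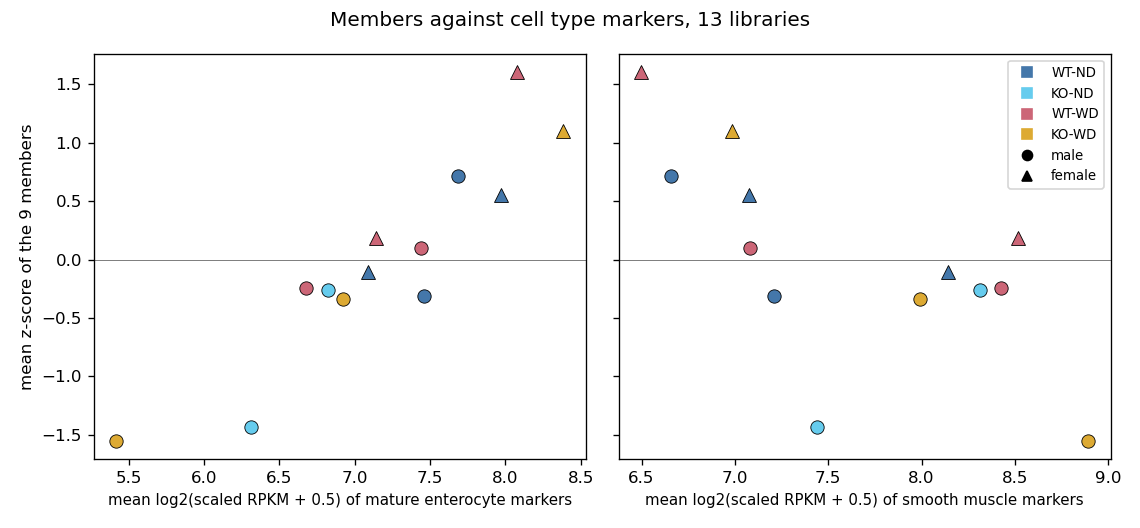
Mean z-score of the 9 members in each library against the mean log2 level of mature enterocyte markers (left) and smooth muscle markers (right). Colour gives the group, circles are males and triangles females. The members rise with the enterocyte markers, from 5.41 to 8.38 on that axis, and fall with the smooth muscle markers.

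Most gene totals came from 1 transcript: *Apoa4* and *Sar1b* from a single one, *Mttp* 98.4% from Mttp-201, and *Apoc2* 95.6% from its main one. *Apob* was the most divided. Its short 3' transcript Apob-203, of 5 exons and starting 4305 bases downstream of the editing site, took 51.3% to 74.7% of the *Apob* RPKM over the libraries (median 62.3%). The full-length transcript, Apob-202, held 57.4% of the reads. Apob-201, also long at 28 exons, held 21.7%, and the short Apob-203 held 20.9%. *Apoc3* RPKM was mostly from Apoc3-205, an annotated processed transcript without a coding sequence (median 83.3%), although its share was 12.6% in a KO-ND library.

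The genes with the profile most like the mean of the members over the 13 libraries, among 10895 with a mean RPKM of at least 5, were *Scp2* (r = 0.98), *Ceacam18* (0.97), *Rbp2* (0.96), *Gramd3* (0.96) and *Fam118a* (0.95). For *Apob* alone they were *Clca4c-ps* (0.97), *Selenoi* (0.96) and *Clca4a* (0.96). These were picked for their likeness and get no test.

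The wider pathway was followed through 7 lists. No gene of any list was called or passed an adjusted p of 0.05 in any comparison. Of 22 tested genes for lipid supply and lipidation, 20 were lower in KO on the ND (median -0.53) and 19 on the WD (median -0.48), beside all-gene medians of 0.01 and -0.01. *Fabp2*, the enterocyte fatty acid binding protein, differed most there, by -2.29 on the WD (SE 0.69, adjusted p of 1 with limma), with 120 to 833 scaled RPKM in KO-WD and 1105 to 4717 in WT-WD. *Fabp1* was at -1.63 on the WD, and its values include numbers with extended digits.

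Of 26 transcription factors of apolipoprotein genes tested, 20 were lower in KO on the ND (median -0.27) and 17 on the WD (median -0.08). *Hnf4a*, which drives many apolipoprotein genes, was at 182 to 233 in WT-ND and 143 to 146 in KO-ND, and at 119 to 198 in WT-WD and 69.3 to 210.4 in KO-WD, where the groups overlapped. *Pparg* was higher in KO by 1.75 on the ND and 2.10 on the WD (adjusted p = 0.895 and 0.22 with limma), and *Ppara* by 0.97 and 1.72 (adjusted p = 0.895 and 0.483 with limma). The values of both carry extended digits. In WT mice on the WD, 23 of the 26 were lower, *Ppard* by -1.01 (adjusted p = 0.152 with limma).

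Of 23 genes of the exit from the endoplasmic reticulum, 17 were lower on the WD in WT mice (median -0.17) and 18 lower in KO on the ND (median -0.17), with 11 of 23 lower in KO on the WD. *Sec23a* and *Sec16b* differed by -0.49 and -0.47 in KO on the WD, and the coat subunit *Sec24c* by -0.47 on the WD in WT mice (adjusted p = 0.299 with limma). *Preb*, which activates SAR1, was lower on the WD in WT mice by -0.66 (adjusted p = 0.12 with limma). Of 6 editing cofactors tested, *A1cf*, the partner of the editing enzyme, was at -1.28 in KO on the ND (adjusted p = 0.895 with limma), at 6.41 to 6.59 beside 12.3 to 20.4 scaled RPKM in WT-ND. On the WD it was at -0.83, with 2.33 to 19.0 in KO and 7.30 to 22.2 in WT, which overlapped. *Celf2* was at 0.88 on the WD in WT mice (adjusted p = 0.297 with limma), and *Hnrnpab* at 0.34 in KO on the WD. *Rbm47*, another cofactor, was at -0.84 on the WD in WT mice (adjusted p = 0.275 with limma).

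The 5 other apolipoproteins tested had a median of 0.28 in KO on the ND and -0.20 on the WD, and *Apoe* was at 147 to 501 scaled RPKM over the libraries. *Apoe* and *Apod* differed by -0.67 and -0.31 in KO on the WD, and *Apoo* and *Apoh* by 0.48 and 0.34 on the WD in WT mice. The 12 CREB3L3 relatives, processing enzymes and targets had medians of 0.12 and 0.14. Among them *Lpl* and *Cidec* differed by -0.89 each on the WD in WT mice, and *Scap* and *Creb3l4* by 0.29 and 0.28 in KO on the WD. All 7 adipocyte markers were also lower on the WD in WT mice (median -2.07), of which *Adipoq* carries extended digits. The part of fat cells in the *Lpl* and *Cidec* differences was not tested. The 14 lipoprotein receptors and lipases had medians of -0.10 and -0.06, and among them *Angptl4*, an inhibitor of lipoprotein lipase, differed by -1.34 on the WD in WT mice (adjusted p = 0.44 with limma).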

How the data were processed

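RNA-seq of terminal ileum was deposited for 16 labelled mice. The authors mapped reads to mm10 with STAR in Partek and quantified Ensembl transcripts, and the values they deposited are taken here as RPKM per transcript. The deposited table is described as raw counts, but its values are not whole numbers. The library total behind the RPKM is not given in the sources used here, and the column sums are nearly equal on the ND, as in TPM, but not on the WD. A count test was therefore replaced by limma 3.58.1 in R 4.3.3. No source used here says whether counting used strand.

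Transcripts were summed to genes by GENCODE M21 names, which 98.2% of transcripts matched. A gene was tested where 2 or more of the 13 libraries reached 1 RPKM. Scaling factors (0.693 to 1.41) were trimmed means of log ratios to a reference library, leaving out the outer 0.3 of ratios and 0.05 of levels at each end. The fit on log2(scaled RPKM + 0.5) took all 4 groups with a mean-variance trend, and female minus male added sex to the groups. The fit was also run on simulated data, with genes independent of each other and 1 spread per gene in all groups. Such data lack the shared variation between libraries seen here, so that run does not show how the fit behaves on these libraries. Exact permutation tests were two-sided, and correlations with marker lists used 100000 permutations. Depth was inferred from the steps between low values, of which 86.7% to 89.1% came out as whole reads within 0.05. Alternatives were other scalings, pseudocounts, filters, covariates, columns and libraries left out.

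All 9 members are named. From each pathway list the rule names called genes, or else the 2 with the biggest differences for WD minus ND in WT mice and for KO minus WT on the WD, and it names the genes most alike in profile. *Hnf4a* was picked with its levels known. The rule also names 1 gene that is not reported here. The members and lists were chosen with earlier results of these data known. The labels do not tie mice to litters or cages, so p-values measure the spread between these samples, which may be technical. Sequences are from RefSeq (GRCm38.p6) and, at the editing site, GENCODE M21 transcripts (GRCm38). Python 3.11.15, numpy 2.4.6, pandas 2.3.3, scipy 1.17.1 and matplotlib 3.10.9 made the other values and figures.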

Additional observations from a re-analysis of the deposited data

Results flagged for a closer look

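In groups of 4 libraries, the highest or lowest library was compared with the nearest of the others. Of the 18 member and group pairs tested in WT-ND and WT-WD, 2 had a library whose gap took more of the range than Dixon's 95% limit, which chance passes in about 1 of 20 groups. *Apoc2* in WT-WD was at 376 scaled RPKM in female 2 and at 10.4 to 12.8 in the other libraries, so the gap was 0.945 of the range. *Apobec1* in WT-ND was at 17.5 in female 2 and at 10.1 to 11.1 in the others, with a gap of 0.84 of the range.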

How the results depend on the processing

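No member was called or passed an adjusted p of 0.05 under any of 28 alternatives, and the lowest adjusted p of a member was 0.0596 with limma. Over the alternatives, 65 differences of single members changed sign. Another 1575 values were classed as unchanged. For single members this means the same direction and side of the threshold. The 1575 also include counts of members, and medians of the members that moved by less than 0.961, whatever their sign. Without scaling, these differences changed sign, for WD minus ND in WT mice *Apob* at -0.10, *Sar1b* at -0.30, *Apobec1* at -0.030 and *Creb3l3* at -0.35, for WD minus ND in KO mice *Sar1b* at -0.13, for KO minus WT on the WD *Apoc2* at -0.073. With males only, these changed sign, for WD minus ND in WT mice *Sar1b* at -0.13 and *Creb3l3* at -0.53, for WD minus ND in KO mice *Apoa1* at -0.40 and *Sar1b* at -0.18, for KO minus WT on the ND *Apoc2* at -0.18. With all 16 columns as labelled, this changed sign, for WD minus ND in KO mice *Mttp* at 0.16. With the KO-WD female 1 column alone, this changed sign, for KO minus WT on the WD *Apoc2* at -0.0016. Relative to the mature enterocyte markers, chosen after the data were seen, these changed sign, for WD minus ND in WT mice *Apoa1* at 0.15, *Apoc3* at 0.035 and *Mttp* at 0.10, for WD minus ND in KO mice *Sar1b* at -0.067, for KO minus WT on the ND *Mttp* at 0.44, *Sar1b* at 0.55 and *Apobec1* at 0.21, for KO minus WT on the WD *Sar1b* at 0.11 and *Apobec1* at 0.0067, for female minus male *Apob* at -0.018, *Apoa4* at -0.33, *Mttp* at -0.052 and *Apobec1* at -0.20. That last alternative also moved the median of the members for KO minus WT on the ND to -0.041. With each library left out in turn, these crossed 0, given as lowest and highest: for WD minus ND in WT mice *Apoa1* at -0.41 to 0.16, *Apoc2* at -1.50 to 0.33, *Apoc3* at -0.62 to 0.11, *Creb3l3* at -0.37 to 0.40, *Mttp* at -0.45 to 0.097 and *Sar1b* at -0.24 to 0.38, for WD minus ND in KO mice *Apoa1* at -0.39 to 1.51, *Apoa4* at -0.59 to 3.62, *Apoc2* at -1.46 to 0.43, *Apoc3* at -0.077 to 1.88, *Mttp* at -0.93 to 0.61 and *Sar1b* at -0.17 to 0.65, for KO minus WT on the ND *Apoc2* at -0.64 to 1.25, for KO minus WT on the WD *Apob* at -1.28 to 0.23, *Apobec1* at -0.79 to 0.048, *Apoc2* at -0.72 to 1.28, *Mttp* at -1.35 to 0.21 and *Sar1b* at -0.76 to 0.083, for female minus male *Apoa4* at -0.094 to 1.21. The median over the members ran over all alternatives from -1.47 to -0.041 for KO minus WT on ND, -1.35 to 0.048 for KO minus WT on WD, 0.066 to 1.48 for WD minus ND in KO, -0.47 to 0.38 for WD minus ND in WT, 0.03 to 1.21 for female minus male, -0.32 to 0.86 for genotype by diet interaction. Over all genes the count of calls did change. For WD minus ND in WT mice it was 1 (22 at an adjusted p under 0.05), against 539 (3441) without scaling, which moved the median of all genes to -0.38, 33 (570) with all 16 columns, 4 (113) with sex as a covariate, 0 (0) with males only, and 1 with pseudocounts of 0.1 (6) and 1 (30), without the filter (5), without values of more than 6 digits (11), with the KO-WD female 1 column alone (12) and with the 2 groups alone (2). For KO minus WT on the WD it was 2 (5), against 6 (16) with all 16 columns, 4 (5) without scaling, and 0 (1) without values of more than 6 digits. For WD minus ND in KO mice it was 0 (1), against 16 (291) with all 16 columns. The cause was not tested. The labels number males and females 1 and 2 in each group. Deviations of same-numbered libraries correlated at -0.15 to 0.57 (median 0.11), and those of other pairs at -0.63 to 0.63 (median -0.05). Of 13 libraries, 8 correlated best with their own number. The averaged KO-WD female carries no single number, so neither it nor a library most like it could match. The labels do not say that a number marks a shared litter, so the numbers were not treated as pairs. With the replicate block, the members' medians were 0.10 for WD minus ND in WT mice, 0.56 in KO mice, -0.66 for KO minus WT on the ND and -0.50 on the WD, and over all genes 3 (106) were called for WD minus ND in WT mice. The block changed no call of a member. Depth limits the lowest values: the member with the fewest reads in a library was *Apoc3*, in KO-ND male 2.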

Other observations

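*Apoa1* was 19.6 to 23.2 times *Apob* per length in WT-ND, 11.3 to 15.03 times in KO-ND, 11.6 to 22.1 times in WT-WD and 8.18 to 18.6 times in KO-WD. The KO-ND and WT-ND ranges did not overlap. The *Apob* level in this ratio includes its short transcript, whose share was higher in KO-ND. The separation therefore need not hold for the full-length transcript alone. *Apoa4* was 0.0066 to 0.0861 of *Apoa1* in WT-ND, 0.0048 to 0.0451 in KO-ND, 0.0390 to 0.110 in WT-WD and 0.0135 to 0.0518 in KO-WD. The short *Apob* transcript took 51.9% to 62.3% of the *Apob* RPKM in WT-ND, 67.1% to 74.7% in KO-ND, 51.3% to 72.4% in WT-WD and 66.3% to 72.4% in KO-WD, so the ND groups did not overlap. These values were picked after they were seen and were not tested.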
